A study of Sorghum bicolor with 14 samples.

Results

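A set of 61 sorghum genes, of the 31337 in the deposited table, was abundant in the pistil before and just after pollination and at least 10-fold lower at every later stage of the developing seed. The members were chosen by the deposited TPM values themselves. TPM is a length-corrected measure of the share of a sample's transcripts that a gene holds. A member had at least 100 TPM in both pistil columns, each of these at least 10 times its TPM at 10, 20 and 30 days after pollination. The values of the 2 pistil columns also had to lie less than 2 apart on the log2(TPM + 1) scale. Of 1421 genes with at least 100 TPM in both pistil columns, 81 met the 10-fold condition, which is 5.7%, and 61 of the 81 met the limit between the pistil columns too.

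RNA came from field-grown sorghum, cultivar M35-1 by the growth protocol of every library, at 5 stages: 1 to 2 days before pollination (1-2 DBP, pistil), then 0 to 2 days (0-2 DAP), 10 DAP, 20 DAP and 30 DAP, where DAP counts days after it. There were 14 libraries, 3 for each stage but 30 DAP, which had 2, and separate plants as their source are not stated. The 0-2 DAP libraries carry both "pistil" and "seed" in their labels; their column is called a pistil column here, and the 10, 20 and 30 DAP columns are called grain. The table holds 1 value per gene and stage, so no difference has a replicate error and no test was possible. Both library kits named in the protocols are listed for every library, and a separate cultivar tag stands on the 6 pistil-column libraries only.

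The grass pistil is an ovary with a single ovule, carrying styles with feathery stigmas that catch pollen. After fertilisation the stigmas and styles wither, the ovary wall becomes the pericarp of the grain, and the endosperm grows inside it and fills with storage protein and starch. Whole-organ RNA therefore mixes tissues whose proportions change from stage to stage. In such bulk samples, fewer cells of a type and less RNA per cell cannot be told apart.

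No member can be given a gene name or a protein here. The table gives IDs alone. None of the 31337 (0 matches) occurred in the RefSeq gene table, either as written or with the prefix changed to the locus-tag form. Marker lists for endosperm, embryo and pollen, which were patterns on gene descriptions, could not be applied, and the tissue labels were not checked against markers. The members are described by ID, level, course and place in the ID order.

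The members together held 3.26% of all TPM before pollination (1-2 DBP) and 6.93% just after it (0-2 DAP). In the grain they held 0.0316%, 0.0182% and 0.0294% at 10, 20 and 30 DAP. Of the 100 most abundant genes of each stage, 11 were members at 1-2 DBP, 25 were members at 0-2 DAP, and none was a member at 10, 20 or 30 DAP. Median TPM of the members over the 5 stages, in time order, was 293, 638, 1.08, 0.463 and 0.993. The other 1360 genes of at least 100 TPM in both pistil columns had medians of 192, 186, 105, 66.7 and 42.8 TPM at the same stages. The rule itself requires members to be low in the grain, and all but 20 of the other 1360 failed its 10-fold condition. Nothing is therefore read from this contrast.

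**Figure D1:**
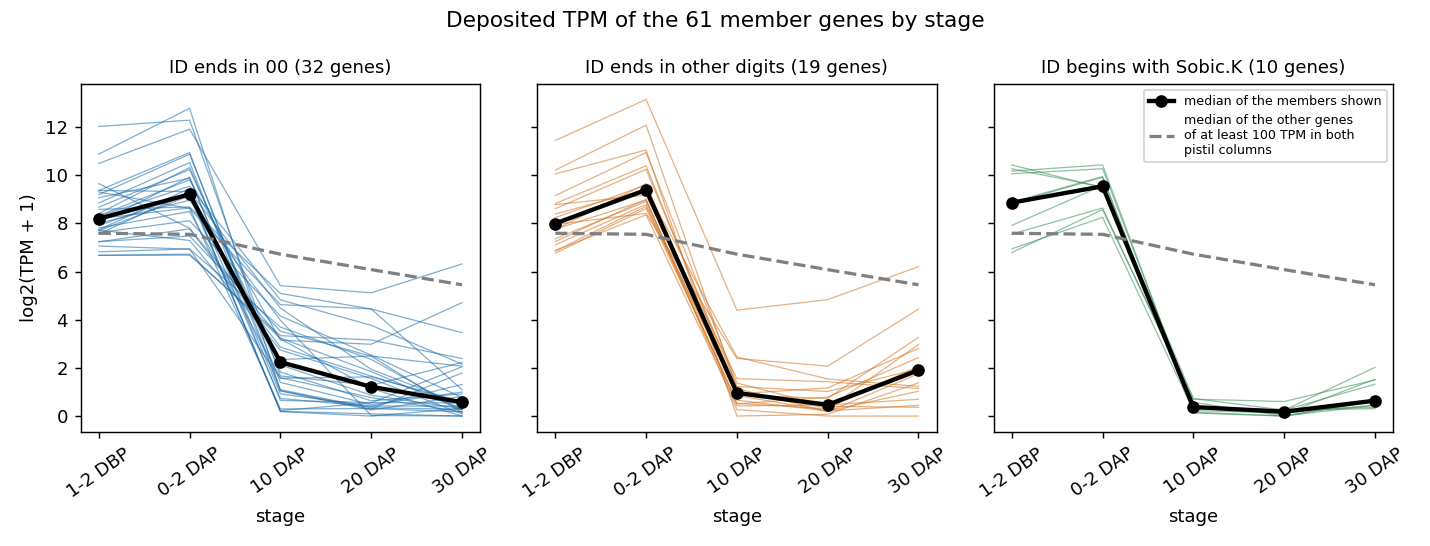
log2(TPM + 1) of each of the 61 members at the 5 stages, in panels by the form of the gene ID; the black line joins the log2(TPM + 1) of the median TPM of the members shown and the dashed grey line that of the other 1360 abundant pistil genes. All members lie far above their grain values in both pistil columns, as the rule requires, while the grey line falls gradually over the grain stages. The contrast follows from the choice of members.

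The 5 members with the highest mean over both pistil columns, named after their values were seen, had unlike levels in the grain. From 1-2 DBP through 30 DAP, Sobic.004G198702 had 2789, 9072, 20.0, 27.5 and 72.8 TPM. Its values in the grain increased stage by stage, although all stayed low beside the pistil. Sobic.003G034200 had 4170, 4999, 2.17, 1.42 and 3.67 TPM at these stages, with a 0-2 DAP to 1-2 DBP ratio of 1.20. Sobic.002G288700 had 1878, 7040, 1.08, 0.222 and 2.45 TPM. Sobic.007G145801 followed the same course with 1186, 4333, 1.21, 0.133 and 2.37 TPM. Sobic.003G171900 kept the highest grain level of all members, with 1438, 3858, 41.7, 33.7 and 78.7 TPM. Across these 5 genes of over 1000 TPM in the pistil, grain values ran from 0.133 to 78.7 TPM.

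The comparison of 0-2 DAP with 1-2 DBP asks how these genes behaved across pollination. On the log2(TPM + 1) scale 36 of the 61 were at least 2-fold higher at 0-2 DAP, 1 was at least 2-fold lower and 24 lay within 2-fold. Over the 24404 genes with at least 1 TPM in some stage, among them all 61 members by the rule itself, 8.82% were 2-fold higher and 6.5% 2-fold lower at 0-2 DAP. Both columns entered the rule, which also limits this difference, so the share of members is a description only. The median difference was 1.25 for the members and 0.02 for all genes. The ratio of 0-2 DAP to 1-2 DBP ran from 0.276 to 3.77 with a median of 2.38, and it was above 1 for 54 members and below 1 for 7. Of the 24404 genes, 12635 were higher and 11688 lower at 0-2 DAP. Of the other 1360 genes of at least 100 TPM in both pistil columns, 550 were higher and 810 lower.

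The members did not share 1 ratio across pollination. Besides the 7 below 1, 13 members lay between 1 and 1.5, 5 between 1.5 and 2, and 36 between 2 and 4. The largest positive difference belonged to Sobic.009G123100, with 1278 TPM at 0-2 DAP against 339 TPM at 1-2 DBP. Sobic.003G172924 came next, with 804 TPM at 0-2 DAP and 214 TPM at 1-2 DBP. The most negative difference was that of Sobic.004G254300, the 1 member that was 2-fold lower, with 222 TPM at 0-2 DAP and 803 TPM at 1-2 DBP. Sobic.K031801, with 711 TPM at 0-2 DAP against 1376 TPM at 1-2 DBP, stopped just short of 2-fold. These 4 genes mark the ends of the range within the limit of 2.

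**Figure D2:**
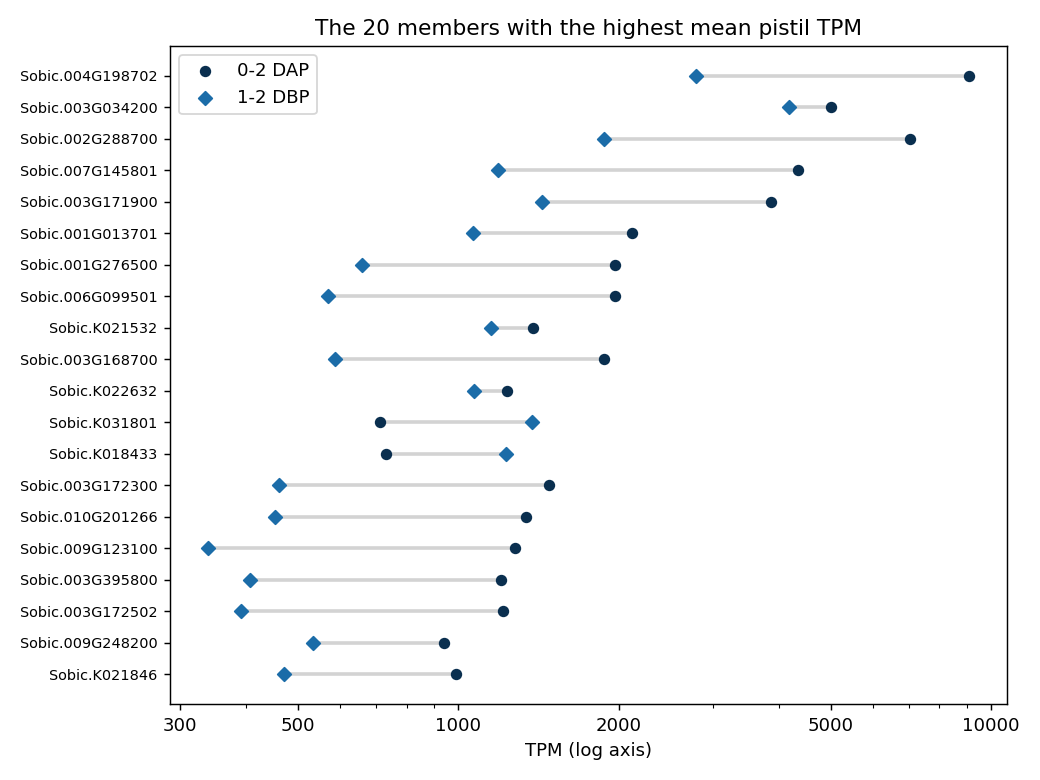
TPM at 0-2 DAP (circles) and 1-2 DBP (diamonds), on a log axis, of the 20 members with the highest mean over both pistil columns. In all but Sobic.K031801 and Sobic.K018433 the value at 0-2 DAP is the higher one.

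The limit of 2 between the pistil columns kept out 20 genes that met the other conditions. Of these 17 were higher and 3 lower at 0-2 DAP. Nearest outside was Sobic.003G172922, with a difference of 2.01 (599 TPM at 0-2 DAP and 147 TPM at 1-2 DBP), and nearest inside was Sobic.009G123100, with 1.91. Sobic.003G172920 also stayed outside, with 13292 TPM at 0-2 DAP and 2384 TPM at 1-2 DBP. Values thus ran on closely across this limit.

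The comparison of 10 DAP with 0-2 DAP holds the fall that defines the set. All 61 members were at least 2-fold lower at 10 DAP, as the rule requires, against a background of 39.7% of all genes, and nothing is read from that count. The median difference was -8.35 for the members and -0.72 for all genes. Sobic.002G288700 had the most negative difference, -11.72, with 1.08 TPM at 10 DAP against 7040 TPM at 0-2 DAP. Sobic.001G013701 followed with -11.05, listed at 0 at 10 DAP against 2117 TPM at 0-2 DAP. The smallest fall was that of Sobic.002G307500, with 11.96 TPM at 10 DAP against 121 TPM at 0-2 DAP. The libraries of the pistil columns and of the grain columns stand in separate blocks of sample records that part at this step, so a technical difference between the blocks and the stage cannot be told apart.

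The depth of the fall varied widely. The lower pistil value was between 10.1 and 4804 times the highest grain value, with a median of 121 times. It was under 20 times in 13 members, at least 100 times in 33 and at least 1000 times in 6. Among the 1385 genes of at least 100 TPM in both pistil columns that lay less than 2 apart there, 420 were below 1 time, 455 between 1 and 2, 390 between 2 and 5 and 59 between 5 and 10. The members form a long, flat tail to that distribution, with 13 between 10 and 20 times and then 8, 7, 9, 10, 8 and 6 in the steps up to 50, 100, 200, 500, 1000 times and beyond. The 10-fold limit cuts the steep part of the distribution, while 48 of the members lie beyond 20 times.

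**Figure D3:**
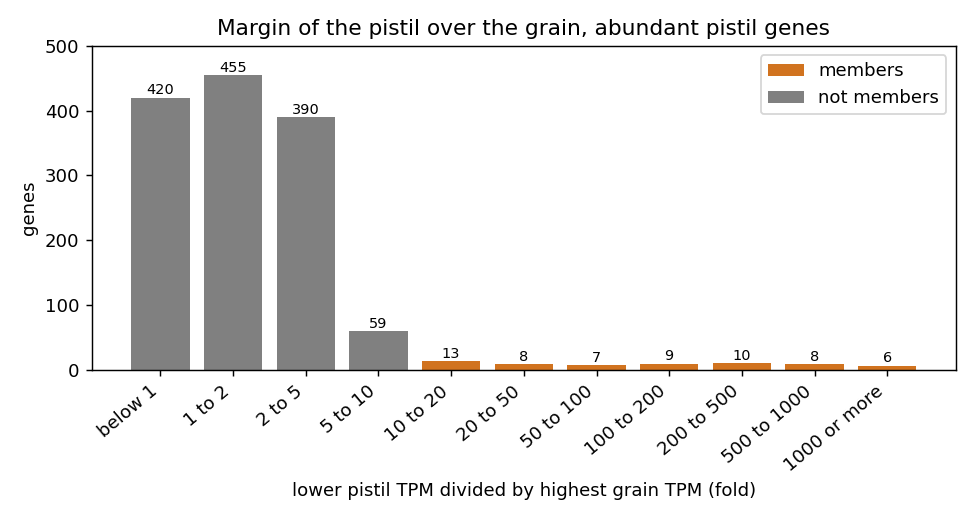
Number of genes (vertical axis) by the lower of the 2 pistil TPM values divided by the highest grain TPM, for the 1385 abundant genes less than 2 apart in the pistil; the 61 members are the orange bars from 10-fold up. Counts drop from 455 at 1 to 2-fold to 13 at 10 to 20-fold and then stay between 6 and 10.

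Sobic.K021532 had the largest margin, with at most 0.240 TPM at any grain stage against 1152 TPM at 1-2 DBP and 1378 TPM at 0-2 DAP. Sobic.002G307500, at 10.1 times, was nearest inside the limit. Sobic.010G129700, at 9.82 times, was nearest outside it, with 256 TPM at 1-2 DBP, 237 TPM at 0-2 DAP and a highest grain value of 24.1 TPM. For the minimum of 100 TPM, Sobic.001G085000 was nearest inside at 101 TPM and Sobic.008G156900 nearest outside at 99.0 TPM, both being the lower pistil value. The 5 IDs were chosen for their place at these limits.

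The label of genes lost in the grain describes the levels only in part. Listed at 0 were 1, 5 and 4 members at 10, 20 and 30 DAP, and below 1 TPM were 28, 38 and 31. Above 10 TPM were 10, 5 and 5 members at these stages. Of all 31337 genes in the table, 3680, 3677 and 6744 were listed at 0 at the same stages. Counts below 1 TPM and above 10 TPM were not made over all genes. The number of reads behind a TPM value is not known here, so a low value and 0 cannot be separated from sampling.

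The comparison of 20 DAP with 10 DAP asks what was left between these seed stages. No member was 2-fold higher at 20 DAP and 12 of 61 were 2-fold lower, or 0% and 19.7%, beside 4.23% and 18.8% of all genes. The share of lower members is near the background on this scale, on which the 28 members below 1 TPM at 10 DAP could not lose 2-fold. With a pseudocount of 0.1 TPM, 1 member was higher and 31 were lower, beside 6.55% and 28.7% of all genes. After median-ratio scaling 1 member was higher and 4 were lower, beside 8.01% and 8.79% of all genes. After quantile normalization 0 and 4 were, beside 8.08% and 9.04%. The median difference was -0.33 for the members, -0.66 for the other abundant pistil genes and -0.47 for all genes. Sobic.004G215500 was the most negative, with 0.0159 TPM at 20 DAP against 14.8 TPM at 10 DAP. Sobic.004G101200 had 2.84 TPM at 20 DAP against 21.3 TPM at 10 DAP. The most positive differences stayed within 2-fold on the log2(TPM + 1) scale: Sobic.004G198702 had 27.5 TPM at 20 DAP against 20.0 TPM at 10 DAP, and Sobic.008G160300 had 0.463 TPM at 20 DAP against 0.170 TPM at 10 DAP. Ranks of the members at 10 and 20 DAP were alike, with Spearman's rho of 0.825 across 61 members, which share 2 columns and are no replicates.

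The comparison of 30 DAP with 20 DAP parted the members. At 30 DAP 18 of 61 were 2-fold higher and 11 were 2-fold lower, or 29.5% and 18.0%, beside 9.03% and 28.2% of all genes. The median difference was 0.29 for the members, -0.51 for the other abundant pistil genes and -0.42 for all genes. The rule holds these values at least 10-fold below the pistil and does not set their order, but their medians were only 0.993 TPM at 30 DAP against 0.463 at 20 DAP, and none has a replicate check. A pseudocount of 0.1 TPM gave 30 members higher and 14 lower, beside 11.5% and 42.2% of all genes. With a pseudocount of 5 TPM only 6 members were higher and 2 lower, beside 5.86% and 12.7% of all genes. Median-ratio scaling gave 27 higher and 10 lower, beside 18.7% and 20.4% of all genes, whose median was then -0.06. Quantile normalization gave 33 and 7, beside 17.2% and 16.9%, with a median of 0.02 for all genes. Rank order changed as well, with rho of 0.348 between 20 and 30 DAP across the 61 members.

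Sobic.010G201332 had the largest gain, with 6.81 TPM at 30 DAP against 0.232 TPM at 20 DAP. Sobic.003G172928 had 8.63 TPM at 30 DAP against 0.664 TPM at 20 DAP. Sobic.010G111200 had the largest loss, with 1.14 TPM at 30 DAP against 20.9 TPM at 20 DAP, and Sobic.004G271300 had 0.107 TPM at 30 DAP against 4.596 TPM at 20 DAP. The highest of the 3 grain values was at 30 DAP in 31 members, at 10 DAP in 27 and at 20 DAP in 3. The same count was not made over all genes. Below 1 TPM were 38 members at 20 DAP and 31 at 30 DAP, so many of these orders rest on low single values. In these single values the members held both genes that kept falling through the grain and genes whose lowest grain value came before 30 DAP.

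The form of the gene ID, which the rule did not use, was unevenly spread over the abundant pistil genes. Sorghum gene IDs of this kind name the chromosome before the letter G and mostly end in 00. IDs that end in other digits or begin with Sobic.K made up 29 of the 61 members, or 47.5%. They made up 8.80% of the 1421 genes of at least 100 TPM in both pistil columns and 15.6% of all genes in the table. In this abundant class, members were 10 of the 11 IDs beginning with Sobic.K, 19 of the 114 other IDs that do not end in 00 and 32 of the 1296 that do, or 90.9%, 16.7% and 2.47%. The remaining Sobic.K gene, Sobic.K026497, also met the 10-fold condition and was kept out by the limit between the pistil columns. Of the 20 genes kept out by that limit, 12 had such IDs, or 60%, so the uneven spread is not particular to the 61.

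Members with the different forms differed more in the grain medians than in the pistil medians. The 32 with IDs ending in 00 had medians of 293, 590, 3.72, 1.32 and 0.489 TPM from 1-2 DBP to 30 DAP. The 19 ending in other digits had medians of 254, 671, 0.946, 0.379 and 2.74 TPM. The 10 beginning with Sobic.K had medians of 464, 745, 0.295, 0.132 and 0.557 TPM. In the first of these groups the median fell at each step of the grain, while in the other 2 it was lowest at 20 DAP.

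The calls by ID form are set here beside those of the other genes of the same form, again with no test. Of the 29 members without the ending 00, 22 were 2-fold higher at 0-2 DAP than at 1-2 DBP, or 75.9%, beside 8.82% of all genes and 20.8% of the 96 other abundant pistil genes with such IDs. Of the 32 members with the ending, 14 were higher, or 43.8%, beside 4.19% of the 1264 other abundant pistil genes of that form. Both columns of that difference entered the rule, so nothing is read from it.

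At 20 DAP against 10 DAP, none of the 29 and 12 of the 32 were 2-fold lower, the 12 being 37.5%. All genes gave 18.8% there, and the other abundant pistil genes 24.0% without the ending and 27.1% with it. At 30 DAP against 20 DAP, 14 of the 29 were higher and none was lower, against 4 higher and 11 lower of the 32. These are 48.3% and 0% of the 29, and 12.5% and 34.4% of the 32, beside 9.03% and 28.2% of all genes. Other abundant pistil genes were higher in 13.5% and lower in 34.4% without the ending, and higher in 12.2% and lower in 36.3% with it. The shares of the 32 lay near those of the other genes of their form at this step. However, 15 of the 32 were below 1 TPM at 20 DAP and could not be called lower. No likeness is therefore read from these shares.

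Low values limit these counts. Of the 29, 21 were below 1 TPM at 10 DAP and 23 at 20 DAP, and such a value cannot lose 2-fold on this scale, while 7 and 15 of the 32 were as low. With a pseudocount of 0.1 TPM, 12 of the 29 and 19 of the 32 were lower at 20 DAP than at 10 DAP, and with 5 TPM none and 4 were. At 30 DAP against 20 DAP, a pseudocount of 0.1 TPM gave 21 higher and none lower of the 29, and 9 higher and 14 lower of the 32. With 5 TPM the gap between the forms was small, at 4 higher and none lower of the 29, and 2 higher and 2 lower of the 32. Median-ratio scaling gave 19 higher of the 29, and 8 higher and 10 lower of the 32. Quantile normalization gave 23 higher of the 29, and 10 higher and 7 lower of the 32. Of all genes, 11.5% were higher and 42.2% lower at this step with 0.1 TPM, and 5.86% and 12.7% with 5 TPM. Median-ratio scaling gave 18.7% and 20.4% of all genes, and quantile normalization 17.2% and 16.9%. At 20 DAP against 10 DAP, 28.7% of all genes were lower with 0.1 TPM and 8.83% with 5 TPM. Shares for other genes of the same form were not computed at these settings.

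**Figure D4:**
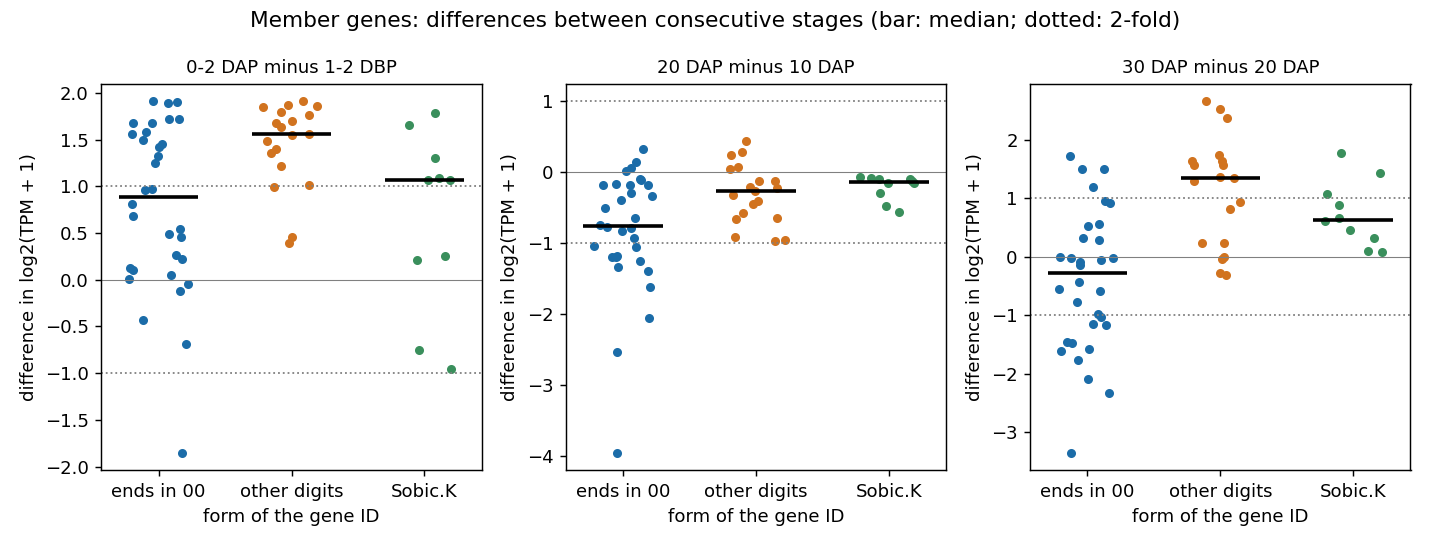
Difference in log2(TPM + 1) of each member (points) between consecutive stages, by form of the gene ID; bars are medians and dotted lines mark 2-fold. At 30 DAP against 20 DAP the medians are 1.35 for IDs ending in other digits, 0.64 for Sobic.K and -0.28 for IDs ending in 00.

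Members came from all chromosome prefixes but 1. There were 13 with the prefix Sobic.003G, 9 with Sobic.001G, 7 each with Sobic.004G and Sobic.010G, 5 each with Sobic.002G and Sobic.009G, 3 with Sobic.006G, 1 each with Sobic.007G and Sobic.008G and none with Sobic.005G, beside the 10 with Sobic.K. The table holds 2068 genes with Sobic.005G, of which 35 had at least 100 TPM in both pistil columns. Sobic.003G holds 21.3% of the members and 14.05% of all genes. Of its 213 genes of at least 100 TPM in both pistil columns, 6.10% were members. The share over all 1421 such genes was 4.29%, at which 35 genes would hold few members. Next to each other in ID order stood 5 pairs of members. Such pairs were not counted among other genes, so nothing is read from their number. The pairs were Sobic.003G172924 with Sobic.003G172926, Sobic.003G172926 with Sobic.003G172928, Sobic.006G099400 with Sobic.006G099501, Sobic.010G201266 with Sobic.010G201332, and Sobic.K031701 with Sobic.K031801.

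A stretch of 35 IDs from Sobic.003G171900 to Sobic.003G173266, picked after its values were seen, held 8 of the 13 Sobic.003G members. Summed over the 35 genes, the stretch held 0.761%, 3.14%, 0.201%, 0.0607% and 0.0426% of the TPM of the 5 stages in time order. The highest value was at 0-2 DAP in 28 of the 35, members included. The rule itself puts the highest value of a member in a pistil column. Shares of genes by the stage of their highest value were not computed over all genes, so nothing is read from this count. The 8 members had 0-2 DAP to 1-2 DBP ratios between 2.32 and 3.76, with a median of 3.02. The limit between the pistil columns caps that range: 4 more genes of the stretch met the other conditions and were kept out by it, with ratios of 4.06 to 5.58. Sobic.003G172300, for example, had 460, 1477, 1.06, 0.190 and 0.764 TPM from 1-2 DBP to 30 DAP. Sobic.003G172502, a few IDs on, had 390, 1212, 1.35, 1.03 and 2.89 TPM, and both were highest at 0-2 DAP and lowest at 20 DAP.

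Genes with the opposite course stood among these members. In 6 of the 35 the highest value was at 10 DAP, at 88.4 to 501 TPM, and their pistil values were at most 18.8 TPM. The 5 consecutive IDs from Sobic.003G172908 to Sobic.003G172916 were of this kind. Sobic.003G172914 had 8.06, 7.21, 501, 135 and 45.0 TPM over the 5 stages. The next IDs after that block, Sobic.003G172918 and Sobic.003G172920, had 2650 and 13292 TPM at 0-2 DAP and 491 and 2384 TPM at 1-2 DBP, and neither is a member. How the authors' counting treated overlapping or nearly identical genes is not given in the sources used here.

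**Figure D5:**
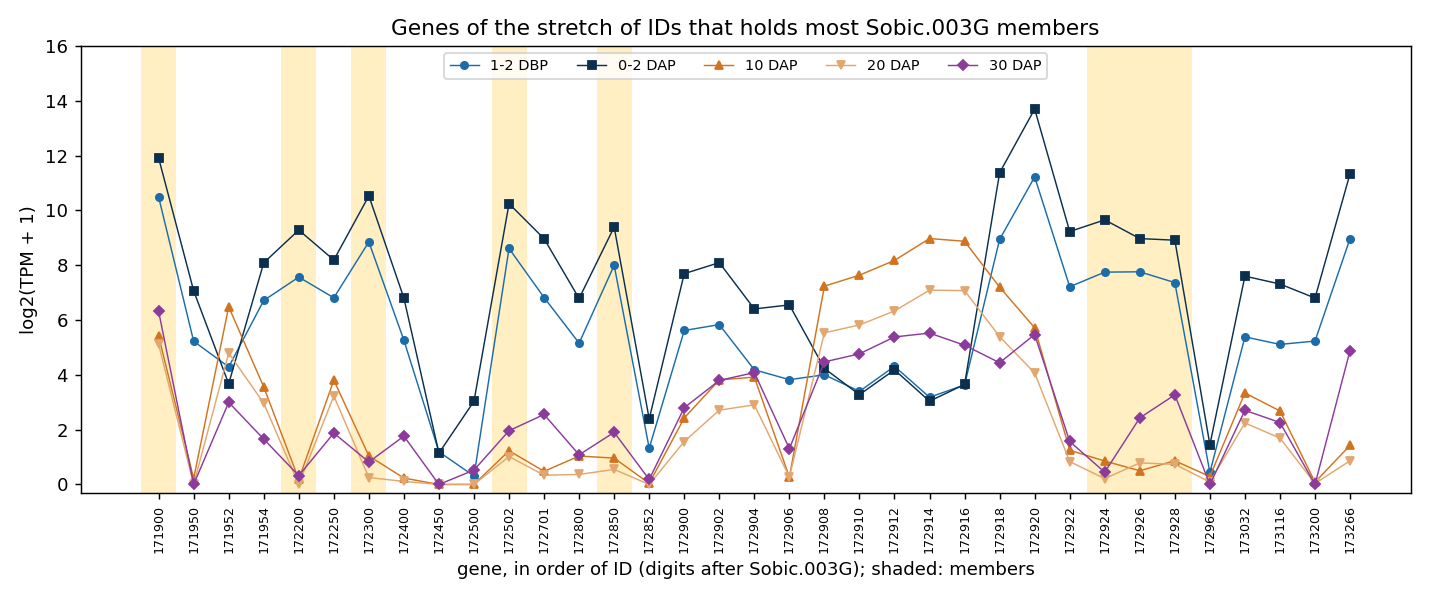
log2(TPM + 1) at each stage for the 35 genes from Sobic.003G171900 to Sobic.003G173266 in order of ID; shading marks the 8 members. Both pistil series run above the grain series at the members, as the rule requires. The 10 DAP series rises above both pistil series from Sobic.003G172908 to Sobic.003G172916.

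Among the 10 Sobic.K members several had like ratios across pollination. Over all pairs of the 10, the larger ratio divided by the smaller ran from 1.001 to 6.69, and the closest pairs are named here. Both columns entered the rule, so nothing is read from the likeness. Sobic.K021746, Sobic.K021846 and Sobic.K021651 had 0-2 DAP to 1-2 DBP ratios between 2.101 and 2.125, and all 3 were listed at 0 at 20 DAP. Sobic.K021746 had 962 TPM at 0-2 DAP and 458 TPM at 1-2 DBP, and Sobic.K021846 had 989 and 470 TPM. The ratio of these 2 genes to each other was 0.973 at 0-2 DAP and 0.974 at 1-2 DBP. Sobic.K021532 and Sobic.K022632 had ratios of 1.20 and 1.16 across pollination and stayed below 0.3 TPM throughout the grain.

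Sobic.K018433 and Sobic.K031801 were 2 of the 7 members with a lower value at 0-2 DAP. The values of Sobic.K018433 were 731 TPM at 0-2 DAP and 1231 TPM at 1-2 DBP. The deposited values of both genes were identical at 10 DAP, at 0.312 TPM, a low value found by searching all members for equal ones. At 20 DAP they were 0.185 TPM for Sobic.K018433 and 0.0679 TPM for Sobic.K031801. At 30 DAP they were 3.05 TPM for Sobic.K018433 and 1.89 TPM for Sobic.K031801. Genes that nearly share a sequence can share reads, and whether these do could not be checked without their sequences, so single values of such IDs are uncertain.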

How the data were processed

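The authors deposited a TPM table, per the file headers. Each of its 5 columns stands for a stage, none for a single library, and each sums to 1000000. Per the submitters' processing notes, whose list gives no roles, the tools were DESeq2, featureCounts 2.2.0 and HISAT2. The genome build and how libraries were merged into a stage value: not given in the sources used here. Stages were compared by differences in log2(TPM + 1), with 2-fold as the threshold and no test, among 24404 genes with at least 1 TPM in some stage. That scale understates changes of low genes. Read depth is not recoverable from the TPM values.

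The members and lists were chosen with earlier results of these data known. As no reference annotates the IDs, the rule for named genes gives the 2 most positive and the 2 most negative IDs of each comparison. Every other ID was chosen after its values were seen. The planned description lists and the protein and promoter comparisons could not be run, since 0 IDs matched. The code was tested on simulated data with planted members. Python 3.11.15, numpy 2.4.6, pandas 2.3.3 and matplotlib 3.10.9 were used.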

Additional observations from a re-analysis of the deposited data

How the results depend on the processing

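Alternatives were pseudocounts of 0.1 and 5 TPM, median-ratio size factors, quantile normalization and other limits in the rule. The rule took 36 genes after median-ratio scaling, all of them members, and 28 after quantile normalization, 25 of them members. Its limits were kept unchanged on the rescaled values. Median-ratio scaling divided the pistil columns by 1.88 and 1.89, and the 10, 20 and 30 DAP columns by 1.03, 0.673 and 0.411. The minimum and the 10-fold condition were therefore stricter there than on the deposited values. It took 101 genes with a minimum of 50 TPM, 120 with 5-fold over the grain and 24 with pistil columns less than 1 apart, and 43, 48 and 81 with 200 TPM, 20-fold and no limit between pistil columns. The median of 10 DAP minus 0-2 DAP was -9.54 with a pseudocount of 0.1, -6.55 with 5 and -7.45 after median-ratio scaling, where the median of all genes was -0.02 in place of -0.72. At 0-2 DAP against 1-2 DBP, 36 to 40 members were higher in every setting, and 3 were lower after quantile normalization. At 20 DAP against 10 DAP, 1 member was higher and 31 were lower with 0.1, with a median of -1.11. Lower members there numbered 4 with 5, 4 after median-ratio scaling, where 1 was higher, and 4 after quantile normalization. At 30 DAP against 20 DAP, 30 were higher and 14 lower with 0.1, and 6 were higher and 2 lower with 5. Quantile normalization gave 33 higher and 7 lower there, with a median of 1.23. Median-ratio scaling gave 27 higher and 10 lower there, with a median of 0.68. The cause of these shifts was not tested. Of all genes, a pseudocount of 0.1 gave 6.55% higher and 28.7% lower at 20 DAP against 10 DAP and 11.5% and 42.2% at 30 DAP against 20 DAP. Counting only genes of at least 5 TPM in some stage moved no count of all genes by over 1.5 times. Dropping the filter could change none, since genes below 1 TPM throughout cannot differ 2-fold on this scale. No paired analysis was possible because libraries have no columns of their own, and leaving out replicates was not run for that reason. Depth is unknown.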
